A study of Homo sapiens with 6 samples.

Results

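Among 48162 genes in the count table of an Ago2 precipitation experiment, 202 abundant transcripts carried an annotated type other than protein-coding. Members were chosen by 3 conditions: a type other than protein_coding, a chromosome other than X, Y or the mitochondrial one, and at least 200 counts in each of 6 libraries. GAS5, ZFAS1 and genes named SNHG were left out. Of 26302 genes that met the conditions on type, chromosome and name, 10723 had a count in some library and 202 reached the minimum in every one. All 202 were among the 16233 genes that passed the filter on low counts and were tested. Since counts chose the members, their levels are a description.

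HEK293 cells, an established human embryonic kidney line, were transfected with Flag-tagged Ago2 together with a mimic of miR-219 (3 libraries) or a negative control mimic (3 libraries). Both groups carried the tagged Ago2, so neither shows cells with their own Ago2 alone. RNA that came down with the tag was sequenced, and each group had 1 library dated 22 August, 5 September and 18 September. In a bulk precipitate without input RNA, the amount of a transcript in the cells and the part of it bound to Ago2 cannot be told apart, nor can fewer cells and less RNA per cell.

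Ago2 holds a small RNA and pairs it, mainly through the seed at bases 2 to 8, with longer RNAs, which are then silenced. Long non-coding RNAs can be bound by small RNAs as messenger RNAs are, and some, such as OIP5-AS1 (cyrano), are known for pairing with a microRNA. Processed pseudogenes are genomic copies of messenger RNAs, often of those that cells make in large amounts, and their reads are hard to tell from reads of the parent gene. The pseudogenes described below were not sorted into processed and other kinds.

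Which mature strand the mimic carried is not given in the sources used here, so the mature strands of both miR-219a hairpins are shown, followed by those of miR-4720 and miR-4453, whose names the table gives to 2 members. The sequences are those of RefSeq (GRCh38.p14). Capitals mark the seed, and the 6 seeds all differ.
hsa-miR-219a-5p: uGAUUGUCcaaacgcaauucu
hsa-miR-219a-1-3p: aGAGUUGAgucuggacgucccg
hsa-miR-219a-2-3p: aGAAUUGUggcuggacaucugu
hsa-miR-4720-5p: cCUGGCAUauuugguauaacuu
hsa-miR-4720-3p: uGCUUAAGuuguaccaaguau
hsa-miR-4453: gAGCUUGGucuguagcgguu
The members MIR4720 and MIR4453 were not these short RNAs: the table gives them lengths of 7616 and 3000 bases, against 89 bases for the MIR4453 hairpin in RefSeq. MIR4720 had a log2 fold change of −0.06 (mimic over control) and MIR4453 of −0.08. Another member, named hsa-mir-6723 in the table, is 1543 bases long and is the nuclear copy MTCO1P12 of a mitochondrial gene in RefSeq.

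The label non-coding held for only part of the set. By the types in the table, 74 members were pseudogenes, 50 processed transcripts, 39 lincRNAs and 32 antisense transcripts, with 3 sense intronic, 2 polymorphic pseudogenes and 2 sense overlapping ones. RefSeq held 172 of them, 168 by symbol and 4 by an older name. There, 67 are non-coding RNAs, 62 are pseudogenes and 43 are protein-coding genes, while 30 had no match. Of the 50 processed transcripts 24 are protein-coding in RefSeq, among them UHRF1, POLDIP2 and NEFL. A further 5 members are snoRNA hosts by their RefSeq symbols, such as C17orf76-AS1 (SNHG29) and LINC00338 (SNHG20), and stayed in because the table names them otherwise.

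All members together took 0.650, 0.696 and 0.738% of the counts in mimic libraries, against 0.665, 0.655 and 0.735% in control libraries, in date order. Non-coding RNAs of RefSeq took 0.178, 0.214 and 0.216% in mimic libraries, against 0.190, 0.196 and 0.207% in control libraries. Pseudogenes of RefSeq took 0.213, 0.199 and 0.238% in mimic libraries, against 0.218, 0.181 and 0.246% in control libraries. Members that are protein-coding in RefSeq took 0.187, 0.196 and 0.205% in mimic libraries, against 0.183, 0.193 and 0.203% in control libraries. The groups overlapped in each of these shares.

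Libraries held 20233819 to 34408699 counts. AGO2, the transfected gene, took 12.6 to 16.7% of the counts in mimic libraries and 10.6 to 18.0% in control libraries, and the 13 mitochondrially encoded genes took 6.25 to 13.3% and 5.66 to 8.39%. The HEK293 markers NEFL (itself a member), NEFM and INA were present in every library, with PAX2 at 2.66 to 6.77 counts per 1000000 counts of the library (CPM). The 18 markers of other cell types summed to 50.2 to 67.6 CPM in mimic libraries and 70.5 to 733 CPM in control libraries, where 733 CPM was the 5 September library with its 23319 HBB counts. Of these sums MBP alone held 44.6 to 47.2 CPM in mimic libraries and 38.4 to 41.0 CPM in control libraries. IGHA1, FABP1 and IGJ had no count in the mimic library of 22 August or the control library of 5 September. PTPRC had 1 count in all libraries together. The part of these transcripts in the results was not tested.

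Between mimics no member differed past the threshold. At an adjusted p under 0.05 in edgeR's quasi-likelihood test, 0 of 202 members were called, beside 0% of all 16233 tested genes. An unadjusted p under 0.05 was met by 3 members, or 1.49%, against a background of 3.01%, and all 3 stood higher with the mimic (1.49%, background 1.74%), with none lower (background 1.26%). DESeq2 called 0 members, beside 0.0175% of its tested genes, with 3 members (1.49%) at an unadjusted p under 0.05, beside 1.59% of all genes. With the date as a block in edgeR, 8 members (3.96%, background 5.75%) had an unadjusted p under 0.05 and again 0 were called. The members' log2 fold changes ran from −0.41 to 0.64, with 101 above 0 and 101 below, and had a median of 0.0018, beside 0.0015 for all tested genes. By date the median was −0.012, 0.031 and −0.013.

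For 198 of 202 members (98.0%) the 95% confidence interval of the fold change lay inside a 2-fold change either way, beside 84.4% of all tested genes and 99.6% of the 9123 protein-coding genes that met the same minimum of counts. The members outside were CTD-3184A7.4 (MHENCR) and the 3 nuclear copies of mitochondrial genes. Counts of the mimic and control groups did not overlap in 8 members that were higher with the mimic (3.96%, background 4.22%) and in 5 that were lower (2.48%, background 3.84%), after scaling by library, which makes 13 in all (6.44%, background 8.06%). Among the protein-coding genes at the same minimum the shares were 2.53% higher and 4.72% lower, or 7.26% in all. A log2 ratio above 0 on all 3 dates was seen in 33 members (16.3%, background 15.6%) and one below 0 in 21 (10.4%, background 14.4%).

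**Figure D1:**
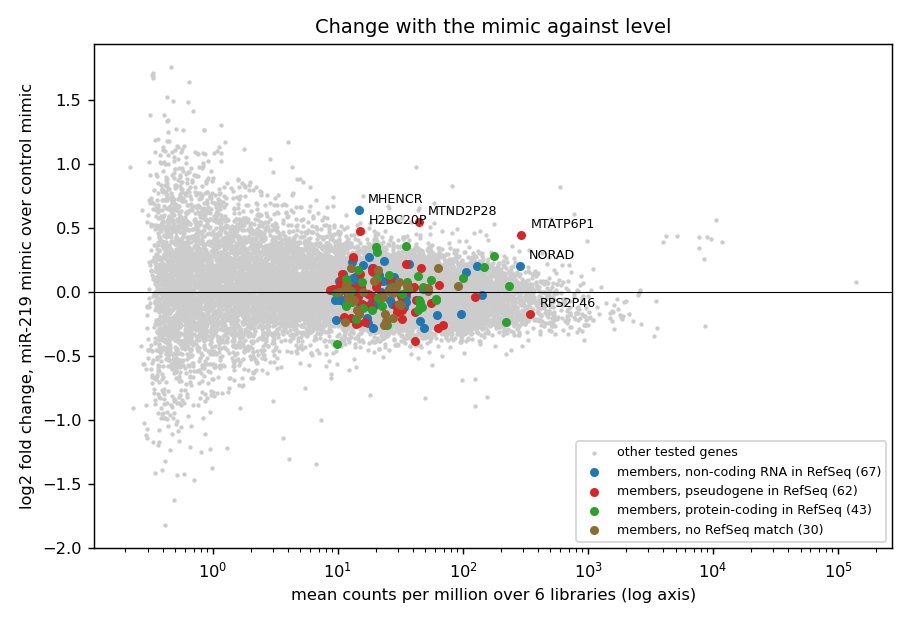
Each point is a gene tested in all 6 libraries, with mean CPM on a log x axis and the log2 fold change of miR-219 mimic over control mimic on the y axis. Grey points are all tested genes, members included, at CPM scaled by TMM. Coloured points are the 202 members by their class in RefSeq, at unscaled CPM. They lie between −0.41 and 0.64, inside the spread of the grey points at about the same level.

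The largest log2 fold change belonged to CTD-3184A7.4 (MHENCR, ENSG00000232442, hg19 chr20:62258580-62260177), an antisense transcript of 801 bases. Its level was 14.96, 15.2 and 23.8 CPM in mimic libraries, against 12.7, 9.91 and 11.8 CPM in control libraries, in date order. Each mimic library stood above each control library, and the 18 September library was the highest of the mimic group. The means were 18.0 ± 5.00 CPM in mimic libraries and 11.5 ± 1.43 CPM in control libraries (SD, n = 3 each), which is 0.64 as a log2 fold change (SE 0.19), with an adjusted p of 0.999 by edgeR (unadjusted 0.00494).

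RP11-196G18.22 (ENSG00000261716, chr1:149816065-149820591), which RefSeq lists as the histone H2B pseudogene H2BC20P, had 14.8, 21.6 and 15.9 CPM in mimic libraries, against 12.4, 12.9 and 12.2 CPM in control libraries. The control libraries lay close together and the mimic libraries all lay above them. Its log2 fold change was 0.48 (SE 0.17, adjusted p 0.999 by edgeR, unadjusted 0.0141). ZNF518A (chr10:97889472-97965044), a zinc finger gene that is protein-coding in RefSeq, had 39.2, 42.6 and 36.8 CPM in mimic libraries, against 31.8, 34.1 and 26.7 CPM in control libraries. Its groups did not overlap either, at a log2 fold change of 0.36 (SE 0.15, adjusted p 0.999 by edgeR, unadjusted 0.0385).

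The next values on the higher side were those of RP11-159D12.9 and NEFL. RP11-159D12.9 lies in DYNLL2, a light chain of the dynein motor, by its RefSeq match, and had 25.1, 21.8 and 21.2 CPM in mimic libraries, against 17.2, 20.1 and 16.4 CPM in control libraries (log2 fold change 0.35, SE 0.17). Its CPM did not overlap between groups, though its counts scaled by library did. NEFL, the light neurofilament subunit, had 183.6, 171.0 and 228 CPM in mimic libraries, against 152, 139.7 and 189 CPM in control libraries (log2 fold change 0.28, SE 0.15). Both were above 0 on all 3 dates, and neither passed (adjusted p 0.999 by edgeR).

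On the lower side the lowest p belonged to AC011242.6 (C1GALT1C1L, chr2:43902292-43903461), a relative of the chaperone of the O-glycan galactosyltransferase. It had 6.57, 8.82 and 10.01 CPM in mimic libraries, against 12.0, 8.63 and 12.9 CPM in control libraries, and the groups overlapped through the 5 September libraries. Its log2 fold change was −0.41 (SE 0.19, adjusted p 0.999 by edgeR, unadjusted 0.0552). POLDIP2, which binds a DNA polymerase, stood at −0.23, CTA-445C9.14 (TFIP11-DT) at −0.25, SCAND2P at −0.21 and RP11-673C5.1 (HMGB1P6, a copy of the chromatin protein gene HMGB1) at −0.23, all with overlapping groups.

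The 8 members whose groups did not overlap on the higher side were MHENCR, H2BC20P, ZNF518A, FGD5-AS1, OIP5-AS1, AD000090.2 (TMEM147-AS1), CECR7 and WAC-AS1. The 5 on the lower side were CRYBB2P1, GS1-124K5.12, RP11-43F13.1 (PDCD6P1), PERPP2 and VPS11, a subunit of the complexes that tether endosomes. Those of the 13 outside the lowest p-values or the highest levels were chosen after their values were seen, and their fold changes were small: WAC-AS1 stood at 0.13 and PERPP2 at −0.13.

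Long non-coding RNAs with known roles were present at very different levels, and none passed the test. A list of 45 long non-coding RNAs had 33 genes in the table, of which 32 were tested and 15 were members. Over the 32, 0 were higher and 0 lower at an adjusted p under 0.05 by edgeR, with a median log2 fold change of 0.10. Among the 15 members the values ran from −0.23 for LINC00665 to 0.24 for MALAT1. Leaving out single libraries of 18 September put LINC00665 at −0.52 (mimic library left out) or −0.014 (control library left out).

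LINC00657 (NORAD, ENSG00000260032, chr20:34633544-34638882), a cytoplasmic RNA known for its part in genome stability, had 290.1, 339 and 277 CPM in mimic libraries, against 241, 281 and 268 CPM in control libraries. The groups overlapped by a narrow margin, since the 18 September mimic library lay under the 5 September control library. Means of 302 ± 32.8 CPM in mimic libraries and 263 ± 20.3 CPM in control libraries (SD, n = 3 each) gave a log2 fold change of 0.20 (SE 0.15, adjusted p 0.999 by edgeR).

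NORAD was one of 92 members with a start region in the RefSeq table, and it shared a run of 16 bases with another member, HCG11, just after the start. Their first 50 transcribed bases are shown for that reason, from GRCh38.p14 at chr20:36050911-36050960 on the minus strand and chr6:26521706-26521755 on the plus strand, with the shared run in capitals.
NORAD: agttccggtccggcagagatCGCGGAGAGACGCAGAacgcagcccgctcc
HCG11: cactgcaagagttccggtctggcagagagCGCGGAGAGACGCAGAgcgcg
Shifted by 9 bases, 37 of 41 letters were the same, while before the start the longest shared run was 11 bases. HCG11 had a log2 fold change of 0.03, beside 0.20 for NORAD. Another 3 pairs of members shared at least 16 bases in the 300 around the start, among them NUTM2A-AS1 and RP11-773D16.1 (NUTM2B-AS1), with a shared run of 177 bases and log2 fold changes of 0.0044 and −0.07. In these 3 pairs the longest run shared after both starts was 4 to 7 bases.

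TUG1 (chr22:31366663-31375381), studied as a long non-coding RNA and listed as protein-coding in this RefSeq release, had 156, 172 and 140.0 CPM in mimic libraries, against 119, 162 and 130.3 CPM in control libraries. All 3 ratios were above 1, while the groups overlapped (log2 fold change 0.19, SE 0.16). OIP5-AS1, the cyrano RNA that pairs with miR-7, had 98.4, 123 and 113 CPM in mimic libraries, against 101, 92.0 and 107 CPM in control libraries (log2 fold change 0.16, SE 0.13). FGD5-AS1, an antisense transcript, had 119, 134 and 159.5 CPM in mimic libraries, against 107, 119.8 and 131 CPM in control libraries, with a log2 fold change of 0.20 (SE 0.13). By library, the groups of OIP5-AS1 and of FGD5-AS1 overlapped in CPM and were apart only after scaling.

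The nuclear RNAs NEAT1 and MALAT1 differed in what their libraries showed. NEAT1 (chr11:65190245-65213011), the scaffold of paraspeckles, had 114, 201 and 111 CPM in mimic libraries, against 169.9, 162 and 96.6 CPM in control libraries. Its log2 ratio was −0.49, 0.25 and 0.17 in date order, and the fold change over all dates was −0.03 (SE 0.26). MALAT1 (chr11:65265233-65273940), a nuclear speckle RNA, had 29.2, 30.0 and 16.6 CPM in mimic libraries, against 26.2, 24.4 and 13.9 CPM in control libraries. Here the log2 ratio was nearly the same on each date, at 0.24, 0.24 and 0.23, while both groups were lowest on 18 September (log2 fold change 0.24, SE 0.28). The 7 tested genes for paraspeckle proteins and MALAT1 processing, such as SFPQ and NONO, had a median of −0.03, with 0 higher and 0 lower by edgeR.

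Further listed long RNAs are given by their log2 fold changes. DANCR, which holds back differentiation, stood at −0.12, PVT1, the neighbour of MYC, at 0.14 and CRNDE at −0.22. EPB41L4A-AS1 stood at −0.06, HCG18 at 0.07, LINC00667 at −0.12 and PCBP1-AS1 at 0.11. LINC00493, which RefSeq lists as SMIM26 and which encodes a small mitochondrial protein, stood at −0.21. Lists of small structural RNAs held no member. They were the spliceosomal, Y, vault, 7SK, telomerase, small Cajal body, RNase P and signal recognition particle RNAs. Many have no row in the count table, which holds 4 of 20 spliceosomal, 5 of 22 small Cajal body and 0 of 4 Y RNAs. Only RPPH1, SCARNA9 and RN7SL1 were tested, at 0.03, 0.25 and 0.27. Their lowest counts in a library were 6, 1 and 71, so the first values lie near the floor. Protein partners of the listed RNAs had medians from −0.16 for RNase P to 0.15 for the vault, with 0 higher and 0 lower in each list by edgeR.

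**Figure D2:**
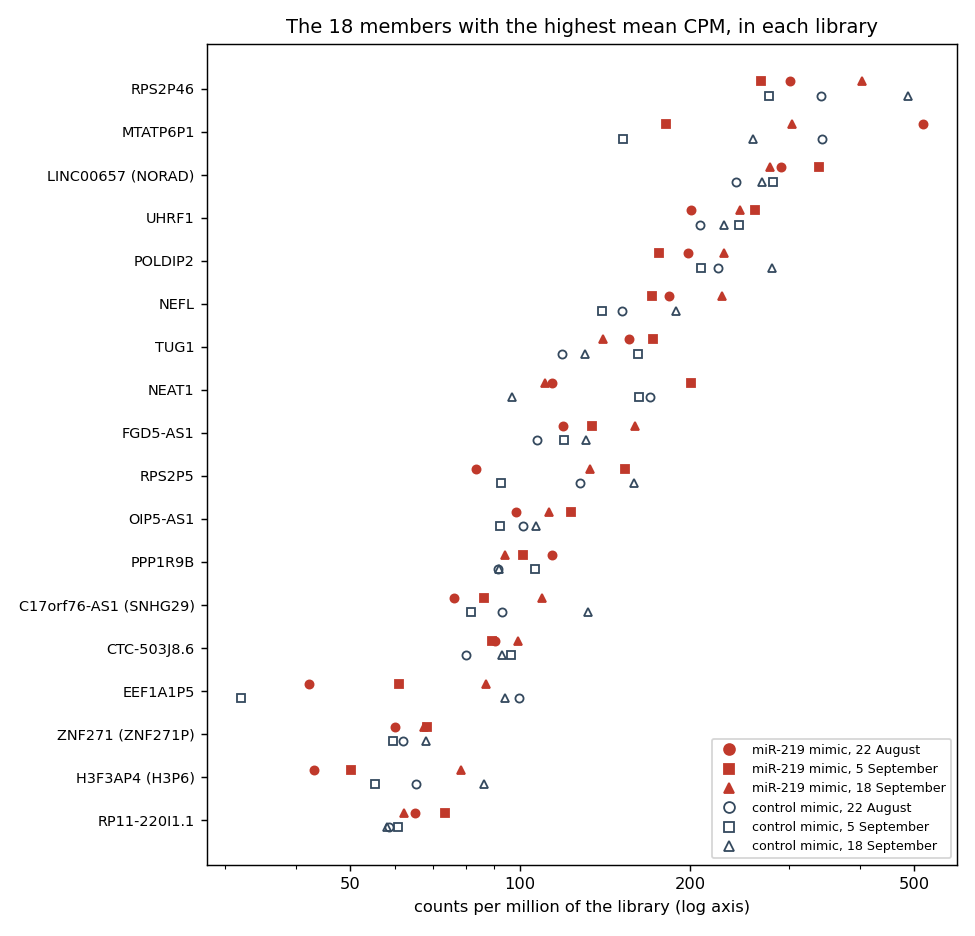
CPM on a log x axis for the 18 members with the highest mean CPM, with RefSeq symbols in brackets where they differ. Filled red marks are the 3 miR-219 mimic libraries and open marks the 3 control libraries, with a shape for each date, and in most of these members the marks of both groups overlap.

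Members that are protein-coding in RefSeq had a median log2 fold change of −0.012 over 43 genes and a range of −0.41 to 0.36. UHRF1, which reads hemimethylated DNA and recruits the maintenance methyltransferase, had 201, 261 and 246 CPM in mimic libraries, against 208, 244 and 229.9 CPM in control libraries (log2 fold change 0.05, SE 0.14). POLDIP2 had 199, 176 and 229.8 CPM in mimic libraries, against 224, 209.5 and 279.5 CPM in control libraries. Its ratio was under 1 on each date, and the groups overlapped. The decapping cofactor DCP1A stood at 0.02, the protein phosphatase scaffold PPP1R9B at 0.11 and the SNARE protein SEC22B at −0.07. The polymorphic pseudogenes SYN2, a synaptic vesicle protein, and TMEM120A stood at 0.07 and −0.01.

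Unmatched or less studied members at high counts showed the same overlap. CTC-503J8.6, a lincRNA with no RefSeq match, had 90.2, 89.0 and 98.9 CPM in mimic libraries, against 80.2, 96.2 and 92.9 CPM in control libraries (log2 fold change 0.05, SE 0.13). TP73-AS1, listed as the pseudogene GFOD3P in RefSeq, had 50.7, 56.4 and 54.5 CPM in mimic libraries, against 49.3, 65.3 and 57.7 CPM in control libraries (log2 fold change −0.09, SE 0.14). The sense intronic RP11-473I1.10 had 32.1, 45.3 and 31.8 CPM in mimic libraries, against 34.5, 36.6 and 34.8 CPM in control libraries, so that the 5 September mimic library alone stood out (log2 fold change 0.04, SE 0.16).

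By the table's own types the medians were likewise near 0: −0.016 for 74 pseudogenes, 0.0067 for 50 processed transcripts, −0.0035 for 39 lincRNAs and 0.028 for 32 antisense transcripts. The 3 sense intronic members, of which RP11-473I1.9 and RP11-473I1.10 lie side by side in C16orf72, ran from −0.0016 to 0.08. Of the 2 sense overlapping members H2BC20P stood at 0.48 and the other at −0.21.

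By length, the longest members had the highest median log2 fold change and the shortest the lowest, but not on every date. The 48 members of 4000 bases or more, by the table's gene length, had a median of 0.09 on the log2 scale, with 35 above 0, and the 20 members under 1000 bases a median of −0.13 with 16 below 0. Between them, 45 members of 1000 to under 2000 bases had −0.0098 and 89 of 2000 to under 4000 bases −0.0022. Over all tested genes the medians were −0.03 under 1000 bases, −0.10, −0.03 and 0.07 in the same bins, so they did not follow the order of length. On 22 August the long members stood at 0.18 and the short ones at −0.13, on 5 September at 0.11 and 0.04, and on 18 September at 0.04 and −0.16. All tested genes of 4000 bases or more stood at 0.20, −0.0096 and 0.02 in date order and those under 1000 bases at −0.19, 0.11 and −0.03, so that on 5 September the short genes were the higher ones.

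Per length, the members with the highest level were pseudogenes of a mitochondrial gene and of ribosomal protein genes. MTATP6P1 averaged 430.1 CPM per kilobase over all libraries, RPS2P46 375, RPS2P5 134 and RPL41P1 107, whereas NORAD averaged 53.0, NEFL 43.4 and MALAT1 2.68 CPM per kilobase. The lowest was TTC28-AS1 at 1.63.

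Pseudogene members mostly had log2 fold changes of the same sign as the genes they copy. The name of 36 of the 74 pseudogene members led to a coding parent, and for 34 of them that parent was tested. Copy and parent had the same sign in 29 of 34, and their log2 fold changes had a Pearson correlation of 0.83 and a Spearman correlation of 0.76 over the 34. Without the mitochondrial copies these were 0.70 and 0.68 over 31, with 26 of the same sign. No share for other pairs of genes was worked out. The signs are those of the fit over all dates, and some pairs of the same sign differed in sign on single dates. Some parents were scarcer than the copy: CRYBB2, in a pair of the same sign, had 10 to 18 counts, against 625 to 1062 for CRYBB2P1. DPY19L2P1 held 161.8 to 226.7% of the parent's counts, while MEIS3P1, at 87.6 to 122.7%, was about level with its parent. These correlations are a description across genes: the pairs share the same 6 libraries, some share a parent, and reads of near-identical sequence can be counted for either gene.

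RPS2P46 (chr17:19349246-19350169), a copy of a small-subunit ribosomal protein gene, had 301, 267 and 405 CPM in mimic libraries, against 341, 276 and 487 CPM in control libraries. It lay below 0 on all 3 dates, as RPS2 did, with log2 fold changes of −0.18 for the copy (SE 0.20) and −0.20 for RPS2 (SE 0.18). RPS2P5, another copy of RPS2, had 83.5, 153.7 and 133 CPM in mimic libraries, against 127, 92.6 and 159 CPM in control libraries; the mimic group held the lowest library and the control group the highest (log2 fold change −0.04, SE 0.21). H3F3AP4 (H3P6), a copy of the replacement histone H3.3 gene, stood at −0.28 and H3F3A at −0.33. PPIAP22, a copy of cyclophilin A, stood at −0.38 and PPIA at −0.31.

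**Figure D3:**
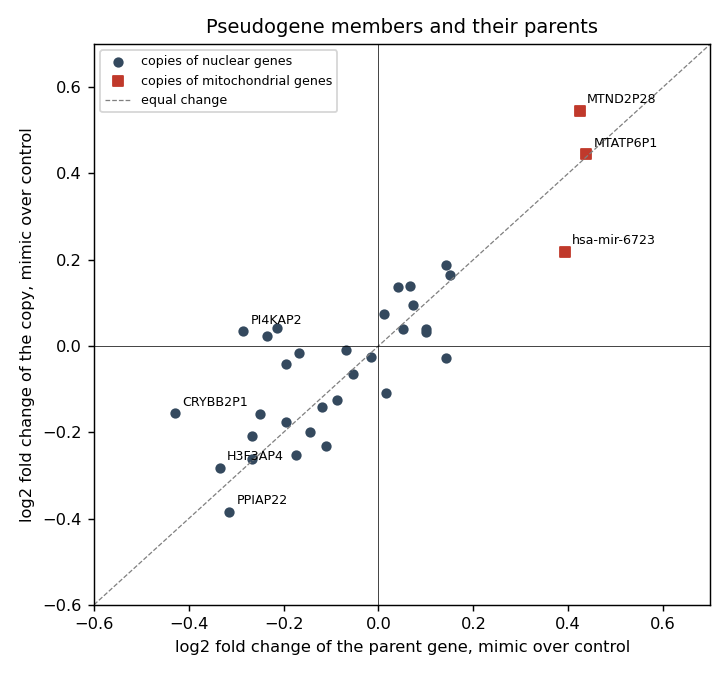
Log2 fold change (miR-219 mimic over control mimic) of 34 pseudogene members on the y axis against that of the parent gene on the x axis, with a dashed line for equal change. Red squares are the 3 nuclear copies of mitochondrial genes, and 29 of the 34 points have the same sign on both axes.

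The nuclear copies of mitochondrial genes had the highest median of the groups described, at 0.44, and their mitochondrial parents stood above 0 as well. All 3 lie within one stretch of chromosome 1 in hg19: MTND2P28 at chr1:565020-566063, hsa-mir-6723 (MTCO1P12) at chr1:566454-567996 and MTATP6P1 at chr1:569076-569756. MTATP6P1 had 519, 181 and 303 CPM in mimic libraries, against 343, 152 and 259 CPM in control libraries. Its log2 fold change was 0.44 (SE 0.36, adjusted p 0.999 by edgeR), beside 0.44 for MT-ATP6, a subunit of ATP synthase.

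MTND2P28 had 69.9, 36.7 and 50.8 CPM in mimic libraries, against 47.4, 20.3 and 42.2 CPM in control libraries, and a log2 fold change of 0.55 (SE 0.30), beside 0.42 for the complex I gene MT-ND2. The member hsa-mir-6723 had 61.9, 20.4 and 29.1 CPM in mimic libraries, against 46.6, 19.2 and 33.0 CPM in control libraries, at 0.22 (SE 0.39), beside 0.39 for the cytochrome oxidase gene MT-CO1. As a share of its parent's counts MTATP6P1 held 6.33, 4.27 and 6.22% in mimic libraries, against 6.13, 4.76 and 6.16% in control libraries. Without the mimic library of 22 August the log2 fold change was −0.12 for MTATP6P1, −0.47 for hsa-mir-6723 and 0.20 for MTND2P28. With other single libraries left out MTND2P28 stood between 0.26 and 0.81, where 0.26 was without the control library of 5 September.

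Copies of 5 families of abundant messenger RNAs did not keep 1 direction. Over 9 copies of RPL, RPS, EEF1A1, PPIA and H3F3A genes the median was −0.21 on the log2 scale, with 8 below 0. Their median by date was −0.53, 0.25 and −0.17. The families were picked by name and not by level: RPL23A, inside them, had 1538 to 2332 counts, and NPM1, outside them, 22073 to 31578. Copies outside them went both ways, such as NPM1P27 at 0.07, TUBBP5 at 0.04 and HMGB1P6 at −0.23. Some of the 9 copies differed relative to the parent from library to library. EEF1A1P5, a copy of the elongation factor that brings transfer RNA to the ribosome, had 1329, 1691 and 1770 counts in mimic libraries, against 2571, 1102 and 1904 counts in control libraries.

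As a share of EEF1A1 counts, EEF1A1P5 held 0.528, 0.909 and 0.981% in mimic libraries, against 0.977, 0.418 and 0.890% in control libraries. The mimic library of 22 August and the control library of 5 September were thus the lowest pair. The log2 ratio of the copy was −1.15, 0.87 and −0.14 in date order, while that of EEF1A1 was −0.26, −0.25 and −0.28. EEF1A1P6, PPIAP22, NPM1P27 and RPS2P5 had their lowest shares in the same pair of libraries. RPS2P46 was lowest in the mimic and control libraries of 5 September, and H3F3AP4 held 23.7 to 26.1% in mimic libraries and 24.0 to 24.2% in control libraries.

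**Figure D4:**
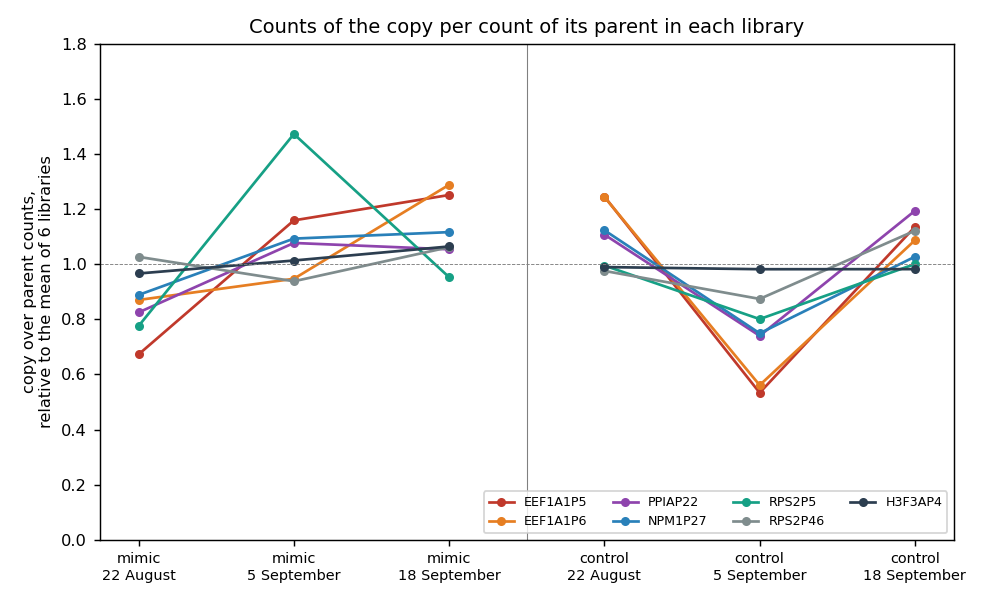
Counts of 7 pseudogene members per count of the parent gene in each library, divided by the mean over the 6 libraries, with miR-219 mimic libraries on the left and control libraries on the right. Several lines dip in the mimic library of 22 August and the control library of 5 September, while H3F3AP4 stays near 1.

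Over all 34 pairs, that pair of libraries had the lowest shares in 11 and the highest in 4. Over all members the pair of libraries was lowest in 29 (14.4%, background 13.3%) and highest in 20 (9.90%, background 11.6%) by scaled counts. These libraries were picked out after their values were seen, and they are the ones without IGHA1 counts; how far that goes with the copies was not tested.

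For members that lie over a coding gene, log2 fold changes were weakly and negatively correlated with those of that gene. By coordinates, 72 members overlapped the span of a coding gene, 56 on the opposite strand and 16 on the same strand. The correlation of log2 fold changes was −0.20 over the 49 opposite-strand pairs with a tested partner and −0.25 over 15 same-strand pairs (Spearman −0.20 and −0.34), as a description across genes. The sign was the same in 18 of the 49 and 5 of the 15, and no share for other overlapping genes was worked out. Whether the counting used strand is not given in the sources used here, so reads of a member and its overlapping partner may not be told apart. Among the pairs of unlike sign, OIP5-AS1 stood at 0.16 and OIP5 at −0.09, and POLDIP2 stood at −0.23 and TNFAIP1 at 0.06.

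Between dates, with mimic as a term, 1 member was called: MTATP6P1, at an adjusted p of 0.0428 by edgeR over all genes. That is 0.495% of members, against a background of 0.308%. An unadjusted p under 0.05 between dates was met by 37 members (18.3%), beside 13.2% of all genes. All genes include many with lower counts than the members, and no share at the same minimum of counts was worked out between dates. The highest levels of MTATP6P1 were those of 22 August with either mimic (519 CPM with the miR-219 mimic and 343 CPM in control libraries), and the lowest those of 5 September. More members were called with any 1 library left out, as were more genes, and MTATP6P1 was among them each time. Such a fit leaves 1 library on a date, which is assumed to vary as the other dates do. The rise was largest with a library of 22 August left out, for members and for all genes alike. Counts called in such fits are not given.

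Against the mean of the later dates, 22 August was higher by a log2 value of 1.09 for MTATP6P1 (adjusted p 0.0230 by edgeR) and 1.24 for hsa-mir-6723 (adjusted p 0.0238 by edgeR), the only members called in that comparison (0.990%, background 0.333% higher). No member was called lower on 22 August (background 0.00616%) or on 18 September (background 0.0493%), and 0 members and 0 genes were called for 5 September, by edgeR. Over the dates together hsa-mir-6723 had an adjusted p of 0.0539 and MTND2P28 of 0.145 by edgeR. The mitochondrial parents were higher on 22 August too, by log2 values of 0.85 for MT-ATP6, 1.04 for MT-CO1 and 0.73 for MT-ND2. Over the dates together these parents had adjusted p of 0.153, 0.185 and 0.284 by edgeR. Whether the copies moved apart from their parents between dates was not tested. MALAT1 was the next outside the mitochondrial copies, with a log2 difference of −0.96 between 18 September and the other dates (adjusted p 0.0643 by edgeR). CASP8AP2, a protein of histone messenger RNA processing, had −0.64 on 18 September (adjusted p 0.157 by edgeR), and its log2 ratio between mimics was 0.10, 0.14 and 0.13 in date order.

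**Figure D5:**
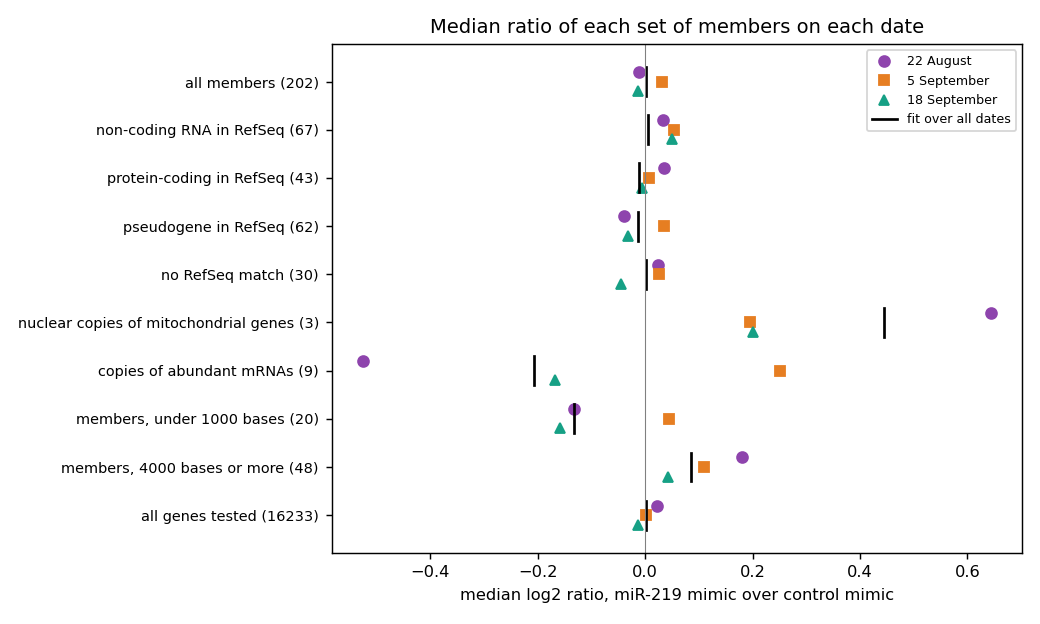
Median log2 ratio of miR-219 mimic over control mimic for groups of members on each date, with a black bar for the median fold change over all dates and the number of genes in brackets. Copies of abundant mRNAs, from families picked by name, run from −0.53 on 22 August to 0.25 on 5 September. The 202 members together stay between −0.013 and 0.031.

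The minimum of 200 counts drew its line through similar genes. Just inside were TTC28-AS1 with 200 counts in its lowest library, a lincRNA and RP1-39G22.7 with 201, TMEM120A with 202 and LINC00638 with 203. Just outside were PI4KAP1 with 199, RP5-991G20.4 with 198, and PMS2P3, CLUHP3 and RP11-345J4.8 with 197. Of 273 genes with a mean of 200 or more, 71 fell under the minimum in some library: 9 fell under it in a mimic library only and 19 in a control library only.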

How the data were processed

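The authors deposited a table of read counts per gene for 6 libraries. Alignment with STAR 2.5, the build hg19, counting with HTSeq 0.6.1 and DESeq2 are named per the submitters' processing notes; strand settings are not given in the sources used here. Libraries were made with a NEBNext Ultra II kit, per the labels' protocols. The members, gene lists and named genes were chosen with earlier results of these data known. Named members are those with the highest CPM of each type, the 5 lowest p-values each way, the 5 lowest between dates, those at the minimum and those of the gene lists; members whose groups did not overlap, PPP1R9B, SEC22B, DCP1A, HCG11 and the NUTM2 pair, MIR4720 and MIR4453, and pseudogenes beside their parents were added after their values were seen.

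All genes were fitted in R 4.3.3 with edgeR 4.0.16 (quasi-likelihood, TMM, filterByExpr with a minimum count of 10 and a total of 15, no block), with Benjamini-Hochberg adjustment over 16233 genes and a threshold of 0.05. CPM are counts per 1000000 counts of the library. The SE divides the fitted log2 value by the root of the F statistic. Ratios by date took a prior count of 2 and CPM scaled by TMM. Separation of groups was judged on scaled CPM. The labels pair the libraries by date; deviations from group means correlated at 0.0466, 0.154 and 0.513 in date order. With 3 libraries per group, the tests measure only how these samples vary, perhaps for technical reasons, as the labels state no separate cultures. Parents were read from pseudogene names, and overlaps from coordinates in the table. Alternatives used limma 3.58.1 (voom) and DESeq2 1.42.0. The fits were tested on simulated counts. Python 3.11.15 with pandas 2.3.3 made the tables and matplotlib 3.10.9 the figures. Some transcripts are not reported here.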

Additional observations from a re-analysis of the deposited data

Results flagged for a closer look

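Among groups of 3 or more members by type, RefSeq class and kind of copy, 2 had a median log2 ratio above 0.1 on one date and below −0.1 on another, and these differences between dates were not tested. The 3 sense intronic members had a median ratio of mimic over control of 0.25 on 5 September and −0.16 on 18 September. The 9 copies of abundant messenger RNAs, from families picked by name, had 0.25 on 5 September and −0.53 on 22 August.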

How the results depend on the processing

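Each group had 3 libraries, which limits what sizes of change can be told from spread. The cause of the changes below was not tested. DESeq2 called 5 genes between mimics, leaving low counts unfiltered gave 20, and every other setting run gave 0. With the replicate block by date 0 genes and 0 members were called (933 genes, 5.75%, and 8 members, 3.96%, at an unadjusted p under 0.05), and the block changed no call. Members called stayed at 0 throughout. A minimum of 100 or 400 counts gave 388 or 97 members. The members' median ran from −0.041 to 0.021 with a library left out. With no filter on low counts, 576 of 28658 genes (2.01%) differed between dates, and the members differing between dates numbered 16 (7.92%). Those genes include many with lower counts than any member has. They were 46 and 68 without the mimic or control library of 22 August (2783 and 4239 of all genes), 18 and 9 for 5 September (773 and 482) and 2 and 3 for 18 September (55 and 61). Over 15 settings, 568 of 615 log2 fold changes of named members kept their direction and 47 reversed. Without both libraries of 22 August (leaving out dates was chosen after seeing the data), NEAT1 was 0.22, CTC-503J8.6 −0.052, SYN2 −0.061, RPS2P5 0.16, RP11-473I1.9 0.15, hsa-mir-6723 −0.10, EPB41L4A-AS1 0.23, LINC00667 0.0073 and LINC00493 0.11. Without those of 5 September, TP73-AS1 was 0.0068, TMEM120A 0.037, RP11-473I1.10 −0.088 and RP11-815I9.4 −0.012. Without those of 18 September, RPS2P5 was 0.099, RP11-473I1.9 0.010 and PCBP1-AS1 −0.064. Without AGO2 and mitochondrially encoded genes RP11-473I1.9 was 0.0043. With single libraries left out, ranges that crossed 0 were −0.18 to 0.030 for TP73-AS1, −0.34 to 0.15 for NEAT1, −0.012 to 0.12 for CTC-503J8.6, −0.086 to 0.19 for SYN2, −0.066 to 0.034 for TMEM120A, −0.016 to 0.12 for UHRF1, −0.33 to 0.038 for RPS2P46, −0.12 to 0.76 for MTATP6P1, −0.22 to 0.14 for RPS2P5, −0.12 to 0.16 for RP11-473I1.10, −0.11 to 0.19 for RP11-815I9.4, −0.18 to 0.090 for RP11-473I1.9, −0.47 to 0.59 for hsa-mir-6723, −0.011 to 0.49 for MALAT1, −0.079 to 0.31 for CASP8AP2, −0.35 to 0.081 for DANCR, −0.21 to 0.18 for EPB41L4A-AS1, −0.024 to 0.33 for PVT1 and −0.051 to 0.27 for PCBP1-AS1.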
